A study of Homo sapiens with 12 samples.

Results

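The enzymes described here are the cytochrome P450s, UDP-glucuronosyltransferases, cytosolic sulfotransferases, N-acetyltransferases, flavin monooxygenases and epoxide hydrolases, together with POR, the reductase that passes electrons to microsomal P450s. They were chosen by gene name from the deposited Huh7 table, leaving out the sterol demethylase CYP51A1 and genes described as pseudogenes. This gave 96 genes among the 60666 listed. RNA was sequenced from Huh7, an established human hepatocellular carcinoma line, in 3 control libraries and 3 shFAM111B libraries. The shFAM111B cells had been transduced with a lentivirus carrying a short hairpin RNA against FAM111B and kept as a line, and the controls are labelled only as the control group. The labels do not say whether the 3 libraries of a group came from separate cultures, so p-values measure the spread between these libraries only. The Hep3B libraries were not analysed here.

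Liver cells clear foreign chemicals, steroids and bile pigments in successive steps. P450s, flavin monooxygenases and epoxide hydrolases first add or expose an oxygen group, and UGTs, SULTs and NATs then attach glucuronic acid, sulfate or an acetyl group, which usually makes the product more soluble or ready for export. Some P450s act instead on the body's own signals, such as retinoic acid, vitamin D, leukotrienes and sterols. Many of these genes are switched on by ligand-activated factors, of which the aryl hydrocarbon receptor AHR, acting on CYP1A1, is the best known.

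Levels are given in TPM, relative transcript abundances that divide the reads of a gene by its length, so levels of different genes can be set side by side. TPM hold no sequencing depth, so no counting error can be given. FAM111B itself stood at 7.84 to 8.29 TPM in the controls and at 0.84 to 1.13 TPM in shFAM111B cells. All 8 hepatocyte markers checked, ALB and APOA1 among them, were present, with 20325 to 20628 summed TPM in the controls and 18917 to 20722 in shFAM111B cells. These sums hide opposite moves of single markers. APOA1 went from 3154 to 3380 TPM in the controls to 6055 to 7893 TPM in shFAM111B cells, and TTR also rose. ALB went from 6419 to 6492 TPM to 3988 to 4356 TPM, and APOB from 230 to 245 TPM to 45.7 to 51.5 TPM. The 2 hepatoma markers AFP and GPC3 summed to 7662 to 8030 TPM and 22734 to 25901 TPM. Of the markers of other cells, 3 of 6 fibroblast or stellate genes (9.58 to 11.8 summed TPM in the controls, 15.1 to 20.98 in shFAM111B cells), 1 of 4 endothelial genes (1.26 to 2.29 and 2.15 to 3.49, with KDR at 0 throughout) and 3 of 5 leukocyte genes (276 to 284 and 308 to 341, nearly all LYZ and CD68, with MS4A1 at 0 throughout) reached 1 TPM. Transcripts of the mitochondrial chromosome took 196140 to 201464 TPM in the controls and 73237 to 78883 TPM in shFAM111B cells. Short noncoding RNA classes took 1645 to 4833 TPM and 5007 to 68689 TPM. The part of these shifts in the results below was not tested.

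Only genes that reached 1 TPM in 3 or more of the 6 libraries were tested. Of the 96 enzymes, 39 passed, and 57 did not. Of those 57, 12 were listed at 0 TPM in all 6 libraries and 6 reached 1 TPM in at least 1 library, the highest single value being 2.2 TPM. Changes are differences of log2(TPM + 1) between the group means (shFAM111B minus control), tested with limma and adjusted by the Benjamini-Hochberg method over all 14394 tested genes. A gene was called higher or lower at a change of at least 2-fold on that scale with an adjusted p under 0.05. Adding 1 to the TPM makes the changes of low genes look smaller. Of the 39, 4 passed through 1 group only, 1 of them (CYP26A1) through the shFAM111B libraries and 3 (CYP2C18, FMO4 and SULT1B1) through the controls, so these had to differ in that direction.

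Of the 39 tested enzymes, 2 were called higher in shFAM111B cells (5.13%) and 7 lower (17.9%). Over all tested genes 6.77% were called higher and 23.7% lower. The 2 higher genes were CYP26A1, which breaks down retinoic acid, and CYP2R1, the main 25-hydroxylase of vitamin D. The 7 lower genes were SULT1C4, CYP4F3, UGT2A3, UGT1A1, CYP1A1, CYP26B1 and FMO5. The median change of the 39 was -0.49 on the log2 scale, and that of all tested genes was -0.36. With the TPM as deposited 22.2% of all calls were higher, whereas median-of-ratios scaling gave 52.9%, upper-quartile scaling 49.7% and quantile normalization 47.5%. These scalings moved the median gene to 0.03, -0.01 and -0.03, and the enzymes called to 3 higher and 5 lower, 3 and 6, and 4 and 5. The median change of the 39 was then -0.10, -0.14 and -0.11.

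**Figure D1:**
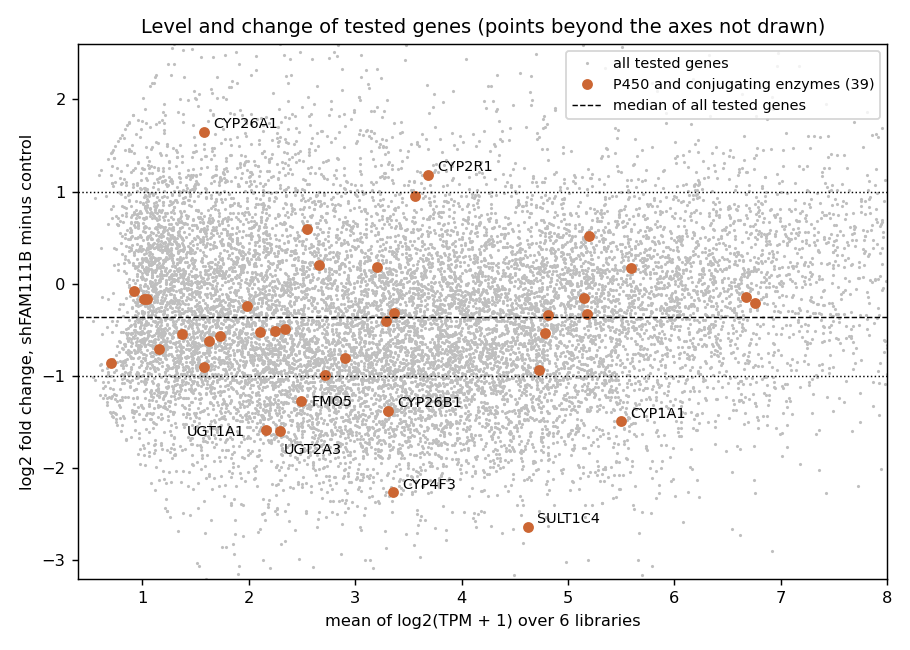
Each point is a tested gene, with its mean log2(TPM + 1) over 6 libraries on the x axis and its log2 fold change (shFAM111B minus control) on the y axis. The 39 enzymes are coloured and the 9 called ones named, dotted lines mark a 2-fold change, the dashed line the median of all tested genes (-0.36), and points beyond the axes are not drawn.

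Sequences upstream of the start sites were taken from RefSeq (GRCh38.p14), which gave 84 start sites for 67 of the 96 enzymes, and 250 bases before each start were searched on both strands. They are printed for the retinoic acid hydroxylases CYP26A1 and CYP26B1, which changed in opposite directions, for CYP1A1, the textbook target of AHR, and for SULT1C4, the enzyme with the largest fall. Capitals mark motif letters. In CYP26A1 they are a direct repeat of AGTTCA with 5 bases between its copies, the retinoic acid response type of element, here read on the opposite strand. This exact repeat was found before 3 of 35116 start sites (0.00854%). Other spellings of the element were not searched, so that share is not a rate for the element type. In CYP1A1 they are GCGTG, the core of the element bound by AHR with ARNT, which 32.2% of start sites hold. In CYP26B1 they are TATAAA (10.7% of start sites), and in SULT1C4 TATAAA and the cAMP response element TGACGTCA (1.65%), which do not overlap. TATAAA also occurs in the 250 bases before the CYP1A1 start and before the second CYP26A1 start. The short stretches printed for those genes do not show it, so TATAAA does not set the printed genes apart. A match is only a match of letters, and the absence of one says nothing about regions outside the window. The starts are those of RefSeq, and GENCODE v29 places some gene bounds farther upstream. By those bounds the CYP26A1 stretch (gene from 93073475) and the CYP1A1 stretch (gene to 74725610) lie inside the annotated gene. The end of the SULT1C4 stretch does too (gene from 108377911).
CYP26A1 (chr10:93073797-93073826, plus strand, 96 to 67 bases before the second RefSeq start): taaagaTGAACTttgggTGAACTaattgtc
CYP26B1 (chr2:72148039-72148112, minus strand, 250 to 177 bases before the start, upstream of every annotated UTR): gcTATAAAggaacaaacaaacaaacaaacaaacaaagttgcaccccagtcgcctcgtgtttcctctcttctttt
CYP1A1 (chr15:74725568-74725597, minus strand, 69 to 40 bases before the start): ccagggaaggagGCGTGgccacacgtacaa
SULT1C4 (chr2:108377704-108377953, plus strand, 250 to 1 bases before the start): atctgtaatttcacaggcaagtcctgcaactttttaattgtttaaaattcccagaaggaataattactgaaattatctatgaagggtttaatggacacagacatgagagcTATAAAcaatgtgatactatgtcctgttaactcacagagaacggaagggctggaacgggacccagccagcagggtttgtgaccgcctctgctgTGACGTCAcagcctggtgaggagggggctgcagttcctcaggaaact

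Among the P450s of vitamin A and D metabolism, CYP26A1 and CYP26B1 changed in opposite directions. CYP26A1 (chromosome 10 from 93073475 to 93077890 in GENCODE v29, GRCh38) had 0.58, 0.74 and 0.76 TPM in the controls and 3.48, 5.20 and 4.38 TPM in shFAM111B cells (replicates 1, 2 and 3 of each group, an order kept below). All controls were under the 1 TPM needed for testing, so it entered the test through the shFAM111B libraries alone and its direction was set by that filter. The change of 1.65 on the log2 scale (SE 0.158, adjusted p = 7.67e-05) is therefore given as a description. Of its 75-base stretches 31.2% also occur in the overlapping transcript AL358613.3 of the same strand, and a pseudocount of 0.1 moved the change to 2.48. With at least 1 TPM demanded in every library it was not tested.

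CYP26B1 (chromosome 2 from 72129238 to 72148038), which hydroxylates the same substrate, had 15.3, 13.4 and 16.5 TPM in the controls and 5.12, 6.05 and 4.41 TPM in shFAM111B cells. It fell by 1.38 on the log2 scale (SE 0.13, adjusted p = 7.19e-05) with no overlap between the groups. After median-of-ratios scaling the change was -0.97 and after quantile normalization -0.86, both short of 2-fold. The summed TPM of CYP26A1 and CYP26B1 were 15.9, 14.1 and 17.3 in the controls and 8.60, 11.2 and 8.79 in shFAM111B cells. CYP26A1 made up 4.43% ± 0.791 (SD, n = 3) of that sum in the controls and 45.5% ± 4.72 (SD, n = 3) in shFAM111B cells, so the pair went from nearly all CYP26B1 to similar shares of both. This share is given as a description, since CYP26A1 entered the test through the shFAM111B libraries alone. An exact permutation test of 3 libraries against 3, used below, cannot give a two-sided p under 0.1.

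CYP2R1 (chromosome 11 from 14877440 to 14892252) had 11.97, 5.56 and 6.37 TPM in the controls and 23.5, 15.5 and 17.1 TPM in shFAM111B cells. Replicate 1 was the highest library of each group, and the groups did not overlap. The change was 1.18 on the log2 scale (SE 0.275, adjusted p = 0.0066), and without control replicate 2 it was 0.99, just under 2-fold.

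CYP1A1 (chromosome 15 from 74719542 to 74725610), which oxidises polycyclic aromatic hydrocarbons, was the most abundant P450 of the control cells. Its level was 73.3, 70.6 and 81.4 TPM in the controls and 25.6, 26.1 and 26.4 TPM in shFAM111B cells. It fell by 1.49 on the log2 scale (SE 0.0666, adjusted p = 4.1e-06), and under the other scalings the change was -1.05 to -1.21. Its share of the summed TPM of all 54 P450s was 27.9% ± 1.01 (SD, n = 3) in the controls and 14.1% ± 0.563 (SD, n = 3) in shFAM111B cells, where CYP27A1 held the largest share. CYP1B1, a second AHR target that was not tested and is named here after its values were seen, had 0.61, 0.51 and 0.63 TPM in the controls and 0.01, 0.15 and 0.06 TPM in shFAM111B cells. The remaining CYP1 gene, CYP1A2, had means of 0.067 TPM in the controls and 0.077 TPM in shFAM111B cells, with overlapping groups. All values of CYP1B1 and CYP1A2 were under the 1 TPM needed for testing, so no direction is drawn from them.

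CYP4F3 (chromosome 19 from 15640897 to 15662825), an omega-hydroxylase of leukotriene B4 and arachidonic acid, had the largest fall on the log2(TPM + 1) scale among the 17 tested P450s. It had 22.5, 21.8 and 20.2 TPM in the controls and 4.27, 3.55 and 3.29 TPM in shFAM111B cells, a change of -2.26 (SE 0.106, adjusted p = 4.57e-06). Its neighbour CYP4F12, a fatty acid hydroxylase of the same cluster, had 33.7, 29.8 and 33.2 TPM in the controls and 20.1, 20.6 and 25.3 TPM in shFAM111B cells. The CYP4F12 groups did not overlap, but its change of -0.54 (adjusted p = 0.00258) did not reach 2-fold and was -0.10 to -0.14 under the other scalings. Of the 75-base stretches of CYP4F3, 4.3% are shared with CYP4F2.

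The other P450s above a mean of 5 TPM were not called. CYP27A1, the mitochondrial sterol 27-hydroxylase of bile acid synthesis, had 43.6, 45.3 and 44.7 TPM in the controls and 51.4, 47.2 and 52.1 TPM in shFAM111B cells (change 0.17, adjusted p = 0.034). CYP2B6, which oxidises bupropion and efavirenz, ranged from 24.9 to 37.6 TPM in the controls and from 18.9 to 30.1 TPM in shFAM111B cells, and the groups overlapped (change -0.34, adjusted p = 0.162). CYP2J2, an arachidonic acid epoxygenase, ranged from 4.62 to 5.45 TPM and from 5.46 to 6.20 TPM (change 0.21, adjusted p = 0.123). CYP20A1, whose substrates are largely unknown, ranged from 9.92 to 10.9 TPM and from 6.97 to 8.44 TPM (change -0.40, adjusted p = 0.00895). CYP2B6 changed sign under each of the 3 other scalings and CYP20A1 under median-of-ratios scaling and quantile normalization, so no direction is drawn for either.

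Several P450s that mark the mature liver were near or at 0, and they are named here after their values were seen. CYP3A4, which oxidises many medicines, had at most 0.24 TPM in any library, and CYP1A2 had at most 0.2 TPM. CYP2E1, which acts on ethanol, had 0.42 to 1.01 TPM in the controls and 0.37 to 0.78 TPM in shFAM111B cells. CYP7A1, the first enzyme of the main bile acid pathway, was listed at 0 TPM in all 6 libraries. In these bulk libraries fewer cells with a transcript and less of it per cell cannot be told apart.

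**Figure D2:**
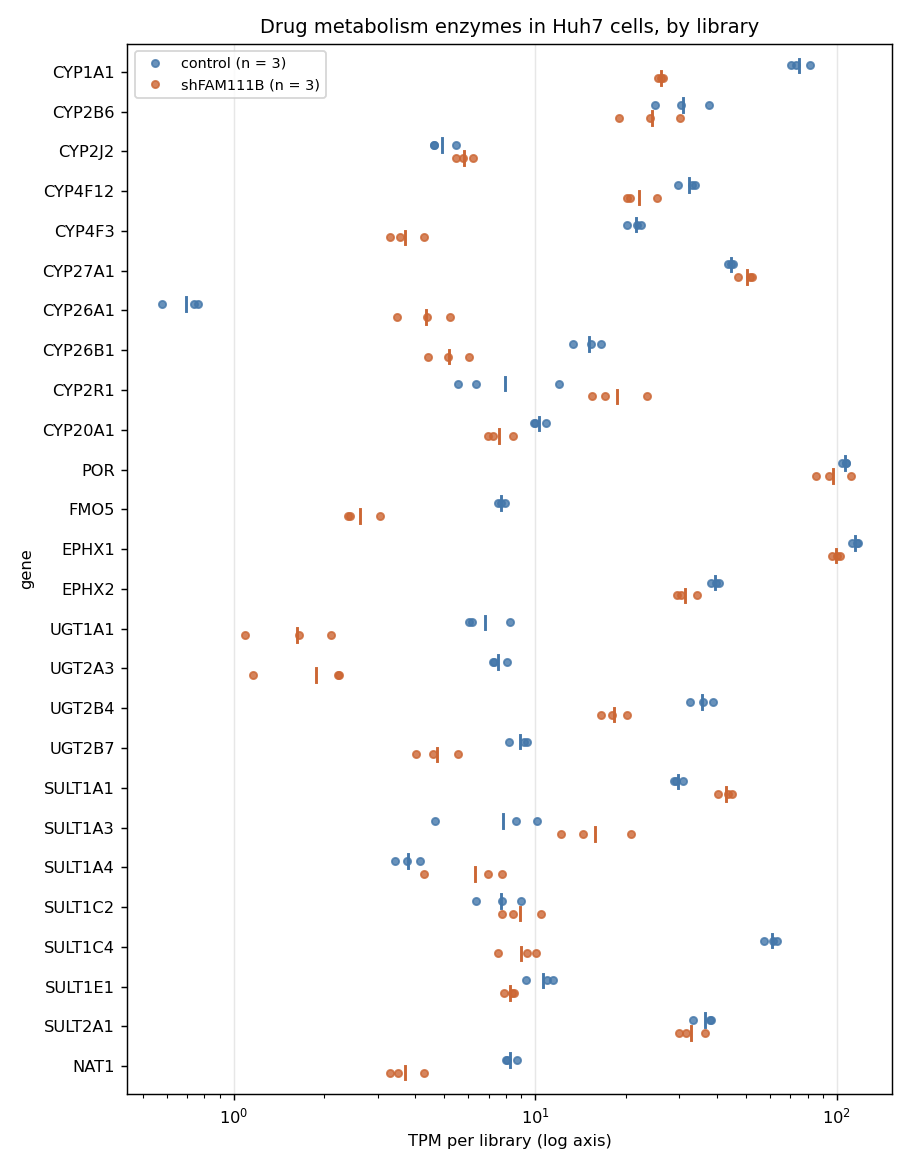
TPM of each library (log axis) for the 26 enzymes that were called or had a mean of at least 5 TPM, with control libraries in blue, shFAM111B libraries in orange and a vertical bar at each group mean (n = 3). SULT1C4 at 57.4 to 63.4 against 7.51 to 10.0 TPM and CYP4F3 at 20.2 to 22.5 against 3.29 to 4.27 TPM lie farthest apart among the lower genes.

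Together the 54 P450s summed to 272, 255 and 281 TPM in the controls and to 182, 177 and 194 TPM in shFAM111B cells, or 269 ± 13.4 and 184 ± 8.99 TPM (SD, n = 3). The groups did not overlap in the TPM as deposited, with a ratio of the means of 0.685. After median-of-ratios scaling that ratio was 0.939 and the groups overlapped. Without CYP1A1 the sums were 194 ± 8.67 and 158 ± 8.72 TPM (SD, n = 3, ratio 0.816), but the ratio turned to 1.12 after median-of-ratios scaling and 1.09 after upper-quartile scaling, so no direction is drawn for the other P450s as a class. POR had 107, 107 and 104 TPM in the controls and 94.5, 85.5 and 111 TPM in shFAM111B cells, with overlapping groups and a change of -0.14 (adjusted p = 0.215) that turned to 0.31 under median-of-ratios scaling. The summed P450 transcripts per POR transcript are a ratio that no scaling of a whole library alters. They were 2.54, 2.37 and 2.69 in the controls and 1.92, 2.07 and 1.75 in shFAM111B cells (exact permutation test, two-sided p = 0.1). This sum includes CYP1A1, so no direction is drawn from it for the other P450s. It also includes the mitochondrial CYP27A1 (mean share 16.6% in the controls and 27.2% in shFAM111B cells), whereas POR serves microsomal P450s.

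Of the 3 tested flavin monooxygenases, 1 was called lower (33.3%, against 23.7% over all tested genes), FMO5, which inserts oxygen into ketones. FMO5 (chromosome 1 from 147175351 to 147243050) had 7.95, 7.54 and 7.69 TPM in the controls and 2.39, 2.44 and 3.06 TPM in shFAM111B cells. It fell by 1.27 on the log2 scale (SE 0.114, adjusted p = 5.61e-05), but under the 3 other scalings the change was -0.83 to -0.94, short of 2-fold. The 5 flavin monooxygenases summed to 14.7 ± 1.33 TPM in the controls and 7.04 ± 0.700 TPM in shFAM111B cells (SD, n = 3), a ratio of 0.478, or 0.655 after median-of-ratios scaling.

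EPHX1, the microsomal epoxide hydrolase, was the most abundant of the 26 named enzymes in the controls, with 112, 117 and 116 TPM against 102, 96.2 and 100.4 TPM in shFAM111B cells. EPHX2, the soluble epoxide hydrolase that acts on fatty acid epoxides, had 39.8, 38.3 and 40.6 TPM against 29.4, 30.5 and 34.3 TPM. Neither pair of groups overlapped, and the changes were -0.21 (adjusted p = 0.00521) and -0.33 (adjusted p = 0.0051). Both were above the change of the median gene and both turned positive under median-of-ratios scaling (0.24 and 0.12), so no direction is drawn for them.

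Among the glucuronosyltransferases 2 of 7 tested genes were called lower and none higher, a count to be read against the 23.7% of all tested genes called lower. UGT1A1 (chromosome 2 from 233760248 to 233773299), which conjugates bilirubin, had 6.17, 6.04 and 8.26 TPM in the controls and 1.65, 2.11 and 1.09 TPM in shFAM111B cells. UGT2A3 (chromosome 4 from 68928463 to 68951791), which conjugates bile acids, had 7.26, 7.29 and 8.04 TPM and 2.22, 2.24 and 1.16 TPM. Both fell by 1.59 on the log2 scale, UGT1A1 with an SE of 0.189 (adjusted p = 0.00023) and UGT2A3 with an SE of 0.18 (adjusted p = 0.000175). Replicate 3 was the highest control and the lowest shFAM111B library for each of them. Under the other scalings both remained called, with changes of -1.18 to -1.28.

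The UGT1A enzymes are made from alternative first exons joined to shared later exons, and 33.7% of the 75-base stretches of UGT1A1 occur in other UGT1A genes. The split of reads between them is therefore uncertain, whereas their sum is less so. All 9 UGT1A genes summed to 10.5, 10.3 and 12.1 TPM in the controls and 5.43, 4.74 and 5.52 TPM in shFAM111B cells. UGT1A1 made up 58.7%, 58.9% and 68.2% of this sum in the controls and 30.4%, 44.5% and 19.7% in shFAM111B cells.

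UGT2B4, which acts on bile acids and catechol estrogens, was the most abundant UGT, with 38.8, 35.9 and 32.6 TPM in the controls and 17.9, 20.2 and 16.6 TPM in shFAM111B cells. UGT2B7, which conjugates morphine and steroids, had 9.18, 9.39 and 8.19 TPM and 4.59, 5.54 and 4.01 TPM. The groups did not overlap for either gene, and the changes of -0.94 (adjusted p = 0.000116) and -0.80 (adjusted p = 0.000978) stood just short of 2-fold. Both stayed negative under the other scalings, at -0.50 to -0.54 and at -0.29 to -0.44. Summed over all 19 UGTs the level was 73.2, 69.9 and 67.1 TPM in the controls and 34.2, 39.5 and 31.4 TPM in shFAM111B cells. The ratio of the means was 0.499, and 0.685 after median-of-ratios scaling, with no overlap in either case. UGT2B4 held 50.9% ± 2.24 of this sum in the controls and 52.1% ± 0.841 in shFAM111B cells (SD, n = 3).

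The sulfotransferases held the largest fall of all 39 enzymes and also 4 of the 8 positive changes. SULT1C4 (chromosome 2 from 108377911 to 108388057), a phenol sulfotransferase known from fetal liver, had 63.4, 57.4 and 61.3 TPM in the controls and 10.0, 9.39 and 7.51 TPM in shFAM111B cells. It fell by 2.64 on the log2 scale (SE 0.107, adjusted p = 3.16e-06) and by 2.21 to 2.27 under the other scalings. Its share of the summed TPM of the 13 sulfotransferases was 38.4% ± 1.10 in the controls and 7.24% ± 1.34 in shFAM111B cells (SD, n = 3).

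SULT1A1, the main phenol sulfotransferase of adult liver, had 28.8, 29.2 and 31.0 TPM in the controls and 43.6, 40.4 and 45.0 TPM in shFAM111B cells. Its groups did not overlap, and its change of 0.52 (SE 0.0647, adjusted p = 0.000288) did not reach 2-fold. The ratio of SULT1A1 to SULT1C4 was 0.454, 0.508 and 0.505 in the controls and 4.35, 4.30 and 5.99 in shFAM111B cells, so the order of these enzymes turned over. This is given as a description. Each gene separated the groups, in opposite directions, so their ratio had to separate them as well. The exact permutation test (two-sided p = 0.1) therefore adds no support. SULT1A1 shares 10.3% of its 75-base stretches with other genes, among them SULT1A2 and SULT1A3.

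SULT1A3 and SULT1A4, near-identical copies that sulfate dopamine, share 98.6% and 99.0% of their 75-base stretches with other genes, mostly with each other and with readthrough transcripts, so their separate values are uncertain. SULT1A3 had 8.65, 4.66 and 10.2 TPM and 12.2, 14.4 and 20.8 TPM, a change of 0.95 (adjusted p = 0.0207). SULT1A4 had 3.42, 3.76 and 4.15 TPM and 6.97, 4.29 and 7.74 TPM, a change of 0.59 (adjusted p = 0.0314). As a pair they summed to 12.1, 8.42 and 14.3 TPM in the controls and 19.1, 18.7 and 28.5 TPM in shFAM111B cells. The sums did not overlap (exact permutation test, two-sided p = 0.1), and the change of SULT1A3 taken by itself passed 2-fold under the 3 other scalings, at 1.33 to 1.44. Without shFAM111B replicate 3 its adjusted p was 0.0561.

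SULT2A1, which sulfates dehydroepiandrosterone and bile acids, had 38.3, 38.0 and 33.3 TPM in the controls and 31.5, 36.6 and 30.02 TPM in shFAM111B cells, with overlapping groups (change -0.16, adjusted p = 0.176). SULT1E1, which sulfates estrogens, ranged from 9.33 to 11.5 TPM and from 7.89 to 8.49 TPM (change -0.32, adjusted p = 0.0237), and SULT1C2 ranged from 6.36 to 8.98 TPM and from 7.78 to 10.5 TPM (change 0.19, adjusted p = 0.303). SULT1E1 overlaps the transcript AC108941.2 on its own strand, with which it shares sequence. SULT2A1 and SULT1E1 changed sign under each of the 3 other scalings. All 13 sulfotransferases summed to 158 ± 4.17 TPM in the controls and 125 ± 5.47 TPM in shFAM111B cells, whereas the 12 without SULT1C4 summed to 97.5 ± 1.92 and 116 ± 6.76 TPM (SD, n = 3). The sum without SULT1C4 was higher in every shFAM111B library than in any control, by a ratio of 1.19 as deposited and 1.63 after median-of-ratios scaling. SULT1C4 had the largest fall, so leaving it out raises the ratio by construction, and this sum is given as a description only. Within it SULT1A1, SULT1A3 and SULT1A4 were higher, whereas SULT2A1 and SULT1E1 were lower as deposited. The direction of the whole class depended on the scaling, with a ratio of 0.788 as deposited and 1.08 after median-of-ratios scaling.

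NAT1, which acetylates aromatic amines, had 8.09, 8.01 and 8.70 TPM in the controls and 3.50, 3.29 and 4.27 TPM in shFAM111B cells. Its groups did not overlap, and its change of -0.99 (SE 0.115, adjusted p = 0.000201) missed 2-fold on the log2(TPM + 1) scale by little. With a pseudocount of 0.1 it was called, but under the 3 other scalings the change was -0.50 to -0.64, short of 2-fold.

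**Figure D3:**
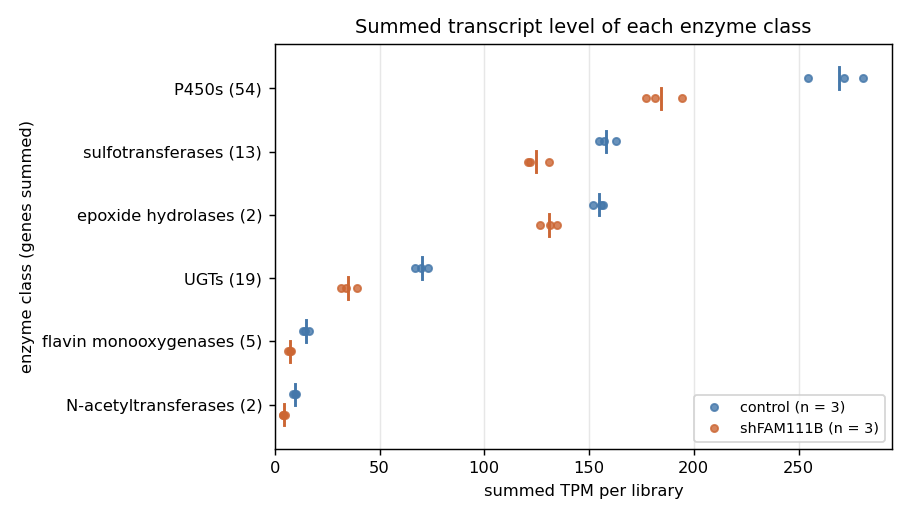
Summed TPM per library (x axis, from 0) of the genes of each enzyme class, with the number of genes in brackets, control libraries in blue, shFAM111B libraries in orange and a vertical bar at each group mean (n = 3). In the TPM as deposited the groups do not overlap for any of the 6 classes, with mean UGT sums of 70.1 and 35.0 TPM, but after median-of-ratios scaling the P450 groups overlap and the sulfotransferase and epoxide hydrolase sums are higher in shFAM111B cells (ratios 1.08 and 1.16).

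Of the 26 enzymes named by call or level, the 9 called had the same direction under all 3 other scalings, while 7 uncalled ones changed sign under at least 1 of them. A call required a 2-fold change, and the scalings moved the median gene by less, from -0.36 to between -0.03 and 0.03. Called genes could therefore hardly change sign, and this contrast is no support for the calls. The remaining 13 tested enzymes all had mean levels under 5 TPM and changes from -0.90 to -0.08, and none was called. Groups did not overlap for 31 of the 39 tested enzymes, and over all tested genes for 75.2%. For 4 of the 31 (CYP26A1, CYP2C18, FMO4 and SULT1B1) the filter had fixed this, since they passed it through 1 group only. At an adjusted p under 0.05 with no limit on the fold, 6 of the 39 were higher and 22 lower, against 21.1% higher and 50.9% lower over all tested genes.

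**Figure D4:**
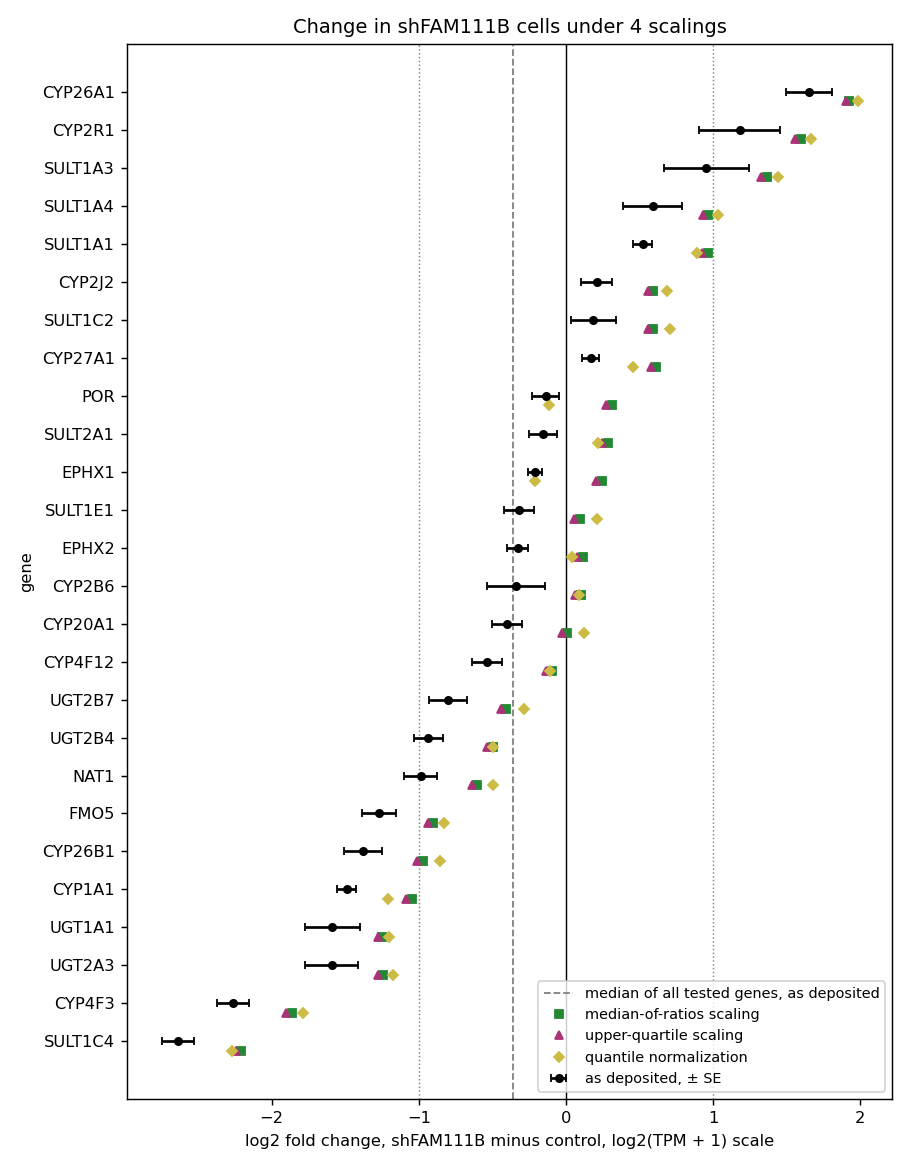
Log2 fold change (shFAM111B minus control, log2(TPM + 1) scale) of the 26 named enzymes, with bars for the standard error of the deposited TPM fit and coloured marks for 3 other scalings. Dotted lines mark 2-fold, the dashed line the median of all tested genes (-0.36), and the other scalings move most genes to the right, taking FMO5 to between -0.94 and -0.83 and SULT1A3 to between 1.33 and 1.44.

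Change also went with transcript length over all tested genes, with a median of 0.27 for genes whose longest annotated transcript has up to 2000 nt, -0.20 for over 2000 to 3000 nt and -0.72 above 3000 nt. The enzymes in these length classes had medians of -0.21 (9 genes), -0.40 (17 genes) and -0.54 (13 genes). SULT1C4, at 1860 nt, was the 1 enzyme called lower in the shortest class, where 8.32% of all tested genes were. CYP26A1 (2245 nt) and CYP2R1 (2325 nt) lie in the middle class, in which 5.68% of all tested genes were called higher. The part of length in these changes was not tested.

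Of the 21 tested regulators of drug metabolism and liver identity, 7 were called lower and none higher, with a median change of -0.71 (-0.30 after median-of-ratios scaling, which called 2 higher and 5 lower). As deposited the share called lower was 33.3%, against 23.7% over all tested genes. Median-of-ratios scaling called 2017 of all 14394 tested genes higher and 1793 lower. AHR fell most, from 33.1, 28.2 and 29.95 TPM in the controls to 3.36, 3.73 and 3.12 TPM in shFAM111B cells (change -2.83, SE 0.0978, adjusted p = 2.55e-06). Its partner ARNT had 16.95, 17.9 and 18.6 TPM and 9.54, 8.57 and 9.11 TPM (change -0.90, adjusted p = 5.13e-05), which is not called. HNF4A, a nuclear receptor needed for many liver genes, fell from 98.1 ± 2.11 to 40.6 ± 2.25 TPM (SD, n = 3, change -1.25, adjusted p = 4.19e-06), and NFE2L2, the factor of the oxidative stress response, from 144 ± 4.84 to 59.8 ± 4.33 TPM (change -1.26, adjusted p = 5.97e-06). After median-of-ratios scaling HNF4A and NFE2L2 stood at -0.80 and -0.81, short of 2-fold, and AHR at -2.43. In the same list CEBPA, CEBPB and FOXA3, liver transcription factors named here after their values were seen, were not called, with changes of 0.69, 0.99 and 0.56 and no overlap between the groups. After median-of-ratios scaling CEBPA stood at 1.14 and CEBPB at 1.42.

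The drug-sensing receptors were low and were not called. NR1I2 (the pregnane X receptor) had 2.03 ± 0.708 TPM in the controls and 0.933 ± 0.191 TPM in shFAM111B cells (SD, n = 3, change -0.63, adjusted p = 0.031). NR1I3 (the constitutive androstane receptor) had 3.80 ± 0.819 and 2.10 ± 0.659 TPM (change -0.64, adjusted p = 0.0225). Their shared partner RXRA had 26.8 ± 0.637 and 15.9 ± 0.406 TPM (change -0.71, adjusted p = 4.63e-05). All 3 stayed negative under the other scalings.

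Electron and haem supply moved unevenly. The median change of 10 tested electron transfer partners was -0.43, or 0.01 after median-of-ratios scaling. Of them 1 was called higher (10%, against 6.77% over all tested genes) and none lower (against 23.7%). That gene, FDX2, a ferredoxin of iron-sulfur cluster assembly, had 25.6 ± 2.19 TPM in the controls and 70.9 ± 14.2 TPM in shFAM111B cells (SD, n = 3, change 1.42, adjusted p = 9.62e-05). CYB5A, the cytochrome b5 that helps some P450s, had 93.2 ± 8.32 and 63.1 ± 5.88 TPM (change -0.56, adjusted p = 0.00121). Of 8 haem synthesis genes 1 was called lower (12.5%, against 23.7% over all tested genes) and none higher. The called gene was FECH, which inserts iron into the porphyrin ring in the last step. FECH had 41.6, 38.4 and 42.0 TPM in the controls and 6.28, 6.70 and 5.60 TPM in shFAM111B cells (change -2.54, adjusted p = 2.55e-06), while ALAS1, the first and rate-limiting enzyme of the pathway in liver, had 85.1 ± 2.62 and 87.4 ± 1.92 TPM (change 0.04, adjusted p = 0.498).

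Of the 11 tested genes that supply the groups to be conjugated, 4 were called lower (36.4%, against 23.7% over all tested genes) and none higher (median -0.62). Each of the other scalings called 3 lower, with medians of -0.32 to -0.35. Those scalings called 1793 to 1905 of all 14394 tested genes lower, fewer than the 3406 of the TPM as deposited. UGDH, which makes UDP-glucuronic acid for all UGTs, had 87.2, 86.6 and 81.4 TPM in the controls and 18.6, 18.8 and 20.2 TPM in shFAM111B cells (change -2.09, SE 0.06, adjusted p = 1.89e-06). SLC35D1, which carries UDP-glucuronic acid into the endoplasmic reticulum, had 36.3 ± 2.61 and 6.58 ± 0.344 TPM (change -2.30, adjusted p = 2.63e-06). MAT2A, which makes S-adenosylmethionine for methylation rather than for UGTs, SULTs or NATs, had 181 ± 8.13 and 51.9 ± 3.31 TPM (change -1.79, adjusted p = 2.63e-06). The synthases of the sulfate donor, PAPSS1 (23.1 ± 1.503 and 11.9 ± 0.635 TPM, change -0.90, adjusted p = 5.41e-05) and PAPSS2 (15.9, 15.9 and 16.2 TPM and 10.9, 11.4 and 10.7 TPM, change -0.50, adjusted p = 0.000511), were not called, and PAPSS2 turned to 0.02 under quantile normalization.

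**Figure D5:**
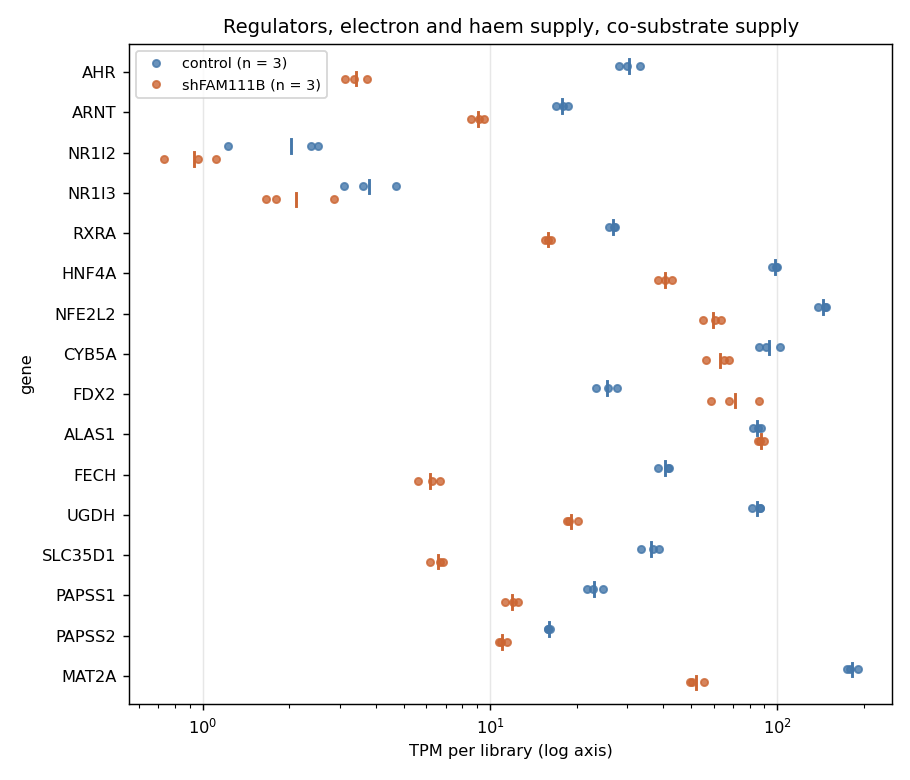
TPM of each library (log axis) for 16 genes from the lists of regulators, of electron and haem supply, and of co-substrate supply. Control libraries are in blue and shFAM111B libraries in orange, with a vertical bar at each group mean (n = 3). AHR, FECH, UGDH, SLC35D1 and MAT2A lie well below their controls, FDX2 lies above, and the ALAS1 groups overlap.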

How the data were processed

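The authors deposited 1 Huh7 table with the TPM of each library, group means and their own comparison (fold change, log2, p-value and adjusted p-value), which was not used. The submitters' processing notes name RSEM, DESeq2 and hg38. TPM are relative, so a rise of some genes lowers all others, and depth is unknown. The labels give a stranded poly(A) kit and the paper another kit.

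The deposited TPM were kept at 1 TPM or more in at least 3 libraries (14394 genes), and log2(TPM + 1) was compared with limma 3.58.1 (R 4.3.3, trend, no covariates) with Benjamini-Hochberg adjustment. The script was tested on simulated data. Positions, lengths and shared 75-base stretches come from GENCODE v29, which holds all 96 enzymes. Named genes are every called enzyme and those averaging 5 TPM or more, and of the linked lists up to 3 called genes with the smallest p and a fixed set of partners. The enzymes and lists were chosen with earlier results of these data known. At most 0.889% of tested genes had identical TPM in any library pair. Alternatives were another pseudocount, 2 other filters, 3 scalings, other call limits, the replicate number as a block and leaving out each library. Tables and figures used Python 3.11.15.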

Additional observations from a re-analysis of the deposited data

How the results depend on the processing

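With at least 1 TPM in every library, 1 enzyme was called higher, since CYP26A1 was not tested there, and 634 of all genes. A pseudocount of 0.1 called 11 of the 39 enzymes lower, against 4245 of all 14394 tested genes. Over all tested genes, median-of-ratios scaling called 2017 higher and 1793 lower, upper-quartile scaling 1884 and 1905, and quantile normalization 1673 and 1846, with 4 enzymes higher in the last. Without a fold limit 6 enzymes were higher and 22 lower, against 3044 and 7326 of all genes. Leaving out each library in turn gave 1 to 3 enzymes higher and 7 to 9 lower, against 904 to 1073 and 3360 to 3545 of all tested genes. The 1 is CYP26A1, as CYP2R1 dropped out without control replicate 2 (0.99). SULT1A3 without control replicate 2 stood at 0.66. With each library left out FAM111B was between -2.25 and -2.15, under the scalings between -1.91 and -1.83, and with a pseudocount of 0.1 at -2.93.

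Changes that turned positive under median-of-ratios scaling were CYP2B6 (0.10), CYP20A1 (0.0088), POR (0.31), EPHX1 (0.24), EPHX2 (0.12), SULT1E1 (0.093) and SULT2A1 (0.29). Under upper-quartile scaling these were CYP2B6 (0.061), POR (0.27), EPHX1 (0.20), EPHX2 (0.076), SULT1E1 (0.056) and SULT2A1 (0.25), and under quantile normalization CYP2B6 (0.091), CYP20A1 (0.13), EPHX2 (0.039), SULT1E1 (0.21) and SULT2A1 (0.22). None of the 7 had been called. The cause was not tested beyond the scaling itself.

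With the replicate number as a block, 2 enzymes were called higher and 7 lower, and 983 and 3402 of all genes. Deviations of same-numbered libraries correlated at 0.054, 0.035 and 0.091, each under 0.1, and the numbers were therefore not taken to pair the samples, although 5 of the 6 libraries correlated best with their own number.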

Other observations

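Other enzymes that handle drugs and aldehydes outside the families above were also listed. Of 25 tested oxidising and hydrolysing enzymes, 2 were called higher (8%) and 6 lower (24%), with a median of -0.40, against 6.77% higher and 23.7% lower over all tested genes. The 2 higher, named after their values were seen, were CES1, a carboxylesterase (23.9 ± 0.382 and 54.5 ± 8.52 TPM, SD, n = 3, change 1.15), and PON1, a paraoxonase (4.52 ± 2.11 and 9.74 ± 0.397 TPM, change 1.03). Among the 8 called, the 3 with the smallest p were lower. ALDH1A1, which makes retinoic acid from retinal, had 1459, 1426 and 1367 TPM in the controls and 508, 536 and 465 TPM in shFAM111B cells (change -1.50, adjusted p = 3.15e-06). ALDH3A2, a fatty aldehyde dehydrogenase, had 114 ± 4.25 and 27.1 ± 2.57 TPM (SD, n = 3, change -2.04, adjusted p = 2.88e-06), and AKR1C2, a steroid reductase, 183 ± 5.46 and 65.4 ± 9.09 TPM (change -1.48, adjusted p = 1.53e-05).

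Of 10 other tested conjugating enzymes, 1 was called higher (10%) and 2 lower (20%), with a median of -0.29. Over all tested genes 6.77% were called higher and 23.7% lower. NNMT, which methylates nicotinamide, rose from 3.90, 3.94 and 4.18 TPM to 13.8, 16.2 and 14.4 TPM (change 1.66, adjusted p = 8.64e-06). TPMT, which methylates thiopurines, fell from 15.2 ± 0.542 to 4.88 ± 0.831 TPM (SD, n = 3, change -1.47, adjusted p = 3.98e-05), and HNMT, which methylates histamine, from 124 ± 4.79 to 46.2 ± 2.14 TPM (change -1.40, adjusted p = 3.15e-06). HNMT stood at -0.96 after median-of-ratios scaling, and TPMT at -0.96 after quantile normalization, both short of 2-fold.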
